A study of Mus musculus with 24 samples.

Results

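The birth of neurons in the adult hippocampus was examined through 10 genes, of 55471 in the count table. Sox2 marks neural stem cells, Mki67 and Top2a mark dividing cells, Eomes, Neurod1, Igfbpl1 and Nhlh1 mark intermediate progenitors and neuroblasts, and Sox11, Dcx and Calb2 mark immature neurons. Each gene was matched by its symbol to 1 Ensembl identifier, and the genes were listed by name with earlier results of these data known. Total hippocampal RNA of 12 female C57BL/6 mice, 3 to 6 months of age, had been sequenced from 3 control littermates and 3 CBP-ifKOs in SC (standard cage) and from 3 of each genotype in EE (environmental enrichment). CBP-ifKOs carry floxed alleles of Crebbp, which encodes the lysine acetyltransferase and coactivator CBP, together with a tamoxifen-inducible Cre (creERT2) under the CaMKIIα promoter. Control littermates lacked the Cre transgene, and all mice received 5 administrations of tamoxifen, so that tamoxifen was common to every group while genotype and transgene went together. EE consisted of about a month in a large box with running wheels, toys and tubes. The CaMKIIα promoter is active in mature forebrain excitatory neurons, and the cells marked by most of these genes are not the cells at which Cre was directed.

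In the adult dentate gyrus, radial glia-like stem cells in the subgranular zone divide to give intermediate progenitors, which become neuroblasts and then immature granule cells that leave the cycle and join the circuit. The sequence is followed by the successive expression of transcription factors of the Sox, T-box and basic helix-loop-helix families and of the microtubule-binding protein doublecortin. Running and enriched housing are known to raise the number of new granule cells in rodents. The question here was whether the RNA of these genes differed with CBP loss, with EE, or with their combination.

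The library totals ranged from 26874015 to 27971488 counts in the 6 controls and from 28582210 to 37448388 in the 6 CBP-ifKOs. A floor of 3 counts corresponded to 0.0801 to 0.112 CPM, a gene's counts scaled to the library total, and covers counting error only. The fitted changes also use TMM normalization factors, which CPM and summed CPM leave out. In the fit of all 12 mice these were 0.9646 to 0.9905 in controls and 1.012 to 1.034 in CBP-ifKOs. They place CBP-ifKOs lower against controls than CPM does, and overlap between groups is described in CPM. In the CBP-ifKOs, 0% of the 148570 counts above 0 were odd, against 54.6% in controls, so this counting difference and the genotype cannot be told apart, and each count of members was computed again with the CBP-ifKO counts divided by 2. A read may have been counted more than once in CBP-ifKOs, in which case their counts printed below, and the floor, stand for fewer reads than in controls, which was not tested. Crebbp checked the genotype labels, at 70 to 80.2 CPM in control SC mice against 51.2 to 52.1 CPM in CBP-ifKO SC mice, and at 68.1 to 74.3 against 46 to 49.1 CPM in EE. Markers of granule cells, pyramidal cells, interneurons and glia were detected in every mouse. The library of control EE replicate 1 stood apart, with a summed level of 5 ependymal and choroid plexus markers of 1200 CPM against 38.8 to 69.3 CPM in the other 11 mice, and values without it are given beside the results it moves. The labels do not state litters, and the p-values measure the spread between these mice.

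On a scale per length (RPKM, the CPM of a gene divided by its exonic length in kilobases), the 10 genes spanned the range from abundant to barely detected RNA. Calb2, which encodes the calcium-binding protein calretinin, lay highest at 18.7 ± 4.32 RPKM (SD, n = 12), above 92.6% of all genes with counts. Sox2, a transcription factor of stem cells that astrocytes also express, had 15.1 ± 1.64 RPKM, and Neurod1, a helix-loop-helix factor that granule cells retain, had 10.8 ± 1.11 RPKM. The ranges of Calb2 and Sox2 overlapped over the 12 mice, whereas those of Sox2 and Neurod1 did not. Dcx, which encodes doublecortin, and Sox11, a transcription factor of newborn neurons, were level at 2.11 ± 0.258 and 2.09 ± 0.293 RPKM with overlapping ranges. The remaining members were scarce, namely Nhlh1 at 0.417 ± 0.255 RPKM, Igfbpl1 at 0.275 ± 0.116 RPKM, Mki67 at 0.191 ± 0.0549 RPKM, Top2a at 0.127 ± 0.0296 RPKM and Eomes at 0.0551 ± 0.0296 RPKM, and each overlapped the next in this order. Eomes encodes Tbr2, the T-box factor of intermediate progenitors, and had 0 to 14 counts in a library. Levels and changes are those of bulk tissue, in which fewer cells of a type and less RNA per cell cannot be told apart.

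**Figure D1:**
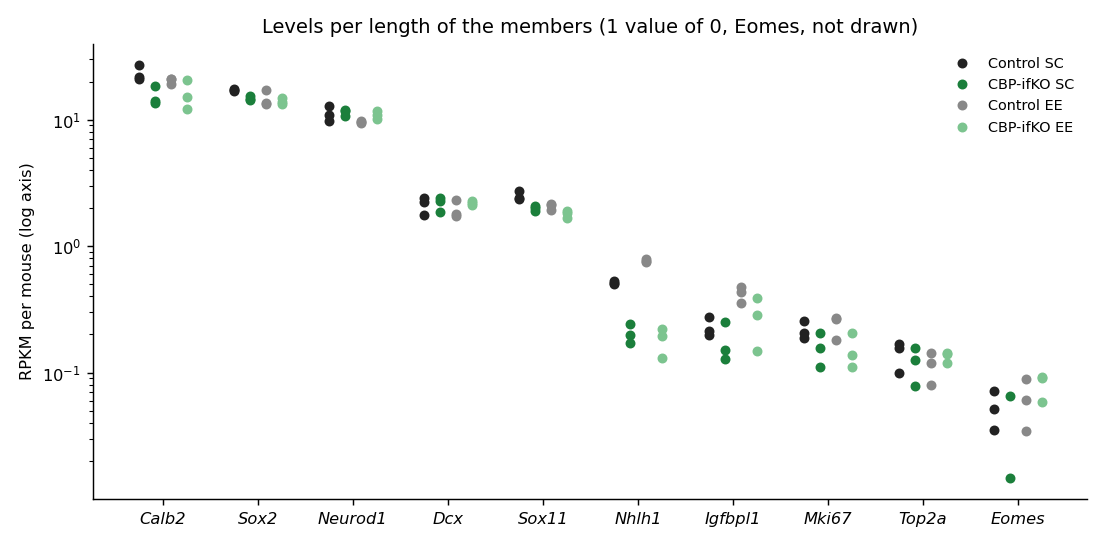
RPKM of the 10 members (vertical log axis, 1 dot per mouse, colours for the 4 groups), ordered from left to right by the mean over 12 mice. Calb2, Sox2 and Neurod1 lie above 9 RPKM in every mouse, Dcx and Sox11 near 2 RPKM, and the other 5 members below 1 RPKM.

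The members lie on 10 different chromosomes (GENCODE annotation of GRCm38). Nhlh1 (ENSMUSG00000051251) occupies 172052292 to 172057573 on the minus strand of chromosome 1, Sox11 (ENSMUSG00000063632) 27334264 to 27342574 on the minus strand of chromosome 12, Calb2 (ENSMUSG00000003657) 110137502 to 110168210 on the minus strand of chromosome 8 and Sox2 (ENSMUSG00000074637) 34650405 to 34652461 on the plus strand of chromosome 3. Exons of these 4 genes overlap no exon of another gene, and neither do those of Dcx, Igfbpl1 and Mki67. Neurod1 shares exonic sequence with Cerkl on its own strand and with Gm26755 on the other, Eomes with Gm33460 on the other strand and Top2a with Gm23451 on its own, and the strand setting of the counting is not given in the sources used here, so reads in these overlaps are uncertain.

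In SC, 4 members were lower in CBP-ifKOs than in control littermates. They are used as markers of different steps of the lineage, but bulk tissue does not show in which cells they fell. Nhlh1, which encodes a helix-loop-helix factor of newly postmitotic neurons, fell by 1.37 on the log2 scale, Calb2 fell by 0.65, Sox11 fell by 0.38 and Sox2 fell by 0.27. Dcx and Neurod1 had changes of -0.01 each. Of the 10 members, 9 passed the filter on low counts and Eomes did not. The 4 members called (edgeR quasi-likelihood F test, Benjamini-Hochberg adjusted p below 0.05) stand beside 5.52% of the 17532 genes tested, and the same 4 had an unadjusted p below 0.05, beside 20.5% of genes. The median change of the 9 members was -0.38 against -0.0019 over all genes tested. The count of members called was 0 without CBP-ifKO SC replicate 1 or 2, 1 without control SC replicate 3, and 2 without control SC replicate 1 or CBP-ifKO SC replicate 3.

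The promoters of Nhlh1, Sox11 and Sox2, 3 of the members that were lower, are shown because these genes moved the same way with genotype. They were taken from RefSeq (GRCm38.p6) as 250 bases before and 50 after the RefSeq start, and are written 5′ to 3′ in the direction of the gene. Capitals mark the E-box, CANNTG on either strand, the motif bound by helix-loop-helix factors such as those encoded by Neurod1 and Nhlh1.
Nhlh1, chr1:172057547-172057846, minus strand: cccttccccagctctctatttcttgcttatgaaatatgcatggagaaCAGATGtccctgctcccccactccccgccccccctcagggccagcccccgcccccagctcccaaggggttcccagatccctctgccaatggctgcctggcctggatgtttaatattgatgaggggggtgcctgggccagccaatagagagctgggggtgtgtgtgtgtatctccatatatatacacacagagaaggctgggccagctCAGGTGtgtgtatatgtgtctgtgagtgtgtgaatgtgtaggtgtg
Sox11, chr12:27342669-27342968, minus strand: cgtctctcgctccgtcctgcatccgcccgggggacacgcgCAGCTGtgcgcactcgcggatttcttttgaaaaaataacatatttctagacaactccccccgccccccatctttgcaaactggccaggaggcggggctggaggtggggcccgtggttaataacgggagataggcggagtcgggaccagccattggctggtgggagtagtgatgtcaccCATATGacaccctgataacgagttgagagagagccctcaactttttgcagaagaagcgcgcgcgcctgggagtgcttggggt
Sox2, chr3:34649745-34650044, plus strand: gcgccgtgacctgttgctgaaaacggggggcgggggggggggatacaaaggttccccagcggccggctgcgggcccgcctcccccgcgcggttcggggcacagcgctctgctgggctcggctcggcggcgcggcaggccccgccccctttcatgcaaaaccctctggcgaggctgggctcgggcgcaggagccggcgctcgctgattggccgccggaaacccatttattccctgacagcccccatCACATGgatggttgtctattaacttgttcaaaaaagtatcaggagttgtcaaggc
Nhlh1 has CAGATG at position -203 and CAGGTG at position 4, counted from 0 at the start, Sox11 has CAGCTG at -210 and CATATG at -32, and Sox2 has CACATG at -5. The windows of Sox11 and Sox2 lie wholly before the GENCODE gene starts given above. RefSeq promoters were found for 8 of the 10 members, in 9 entries, and an E-box was present in 6 of the 8, against 72.3% of all 32851 promoters in the table. TGACG on either strand, the core of the cyclic AMP response element bound by CREB, a partner of CBP, was in 0 of the 8, against 20.8% of all promoters. These counts describe letters in these windows only.

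Nhlh1 carried the largest difference of the 10. Its levels were 1.23, 1.26 and 1.29 CPM in control SC mice and 0.486, 0.42 and 0.596 CPM in CBP-ifKO SC mice. Every CBP-ifKO lay below every control, from 34 to 36 counts in control SC mice and 12 to 22 counts in CBP-ifKO SC mice, or 6 to 11 after division by 2. The fitted log2 fold change was -1.37 (SE 0.29, adjusted p = 0.0198, edgeR), with a 95% interval of -2.0 to -0.73. The call was made in 2 of 6 fits that left out a mouse, with log2 fold changes between -1.51 and -1.26, and was lost without control SC replicate 1 or 3 or CBP-ifKO SC replicate 1 or 2 (adjusted p up to 0.0845). DESeq2 gave Nhlh1 a log2 fold change of -1.37 in SC but, by its own filter on low counts, no adjusted p. The genes most like Nhlh1 over the 12 mice, given further below, include Rgs14, a gene of CA2 pyramidal cells. The part of such cells in the Nhlh1 difference was not tested.

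Calb2 had 38.1, 36.6 and 47.4 CPM in control SC mice. In CBP-ifKO SC mice it had 23.6, 24.6 and 32.1 CPM, all below the controls. The log2 fold change was -0.65 (SE 0.12, adjusted p = 0.00874, edgeR), with an interval of -0.91 to -0.39. Calretinin also marks mossy cells, Cajal-Retzius cells and a class of interneurons. The summed level of 4 mossy cell markers, Calb2 included, was 55.1 to 65.4 CPM in controls and 36.3 to 47.9 CPM in CBP-ifKOs, and Calb2 was the 1 of these 4 that passed the test in SC. Averaged over housing, 3 of the 4 were called lower, Calb2, Calcrl (-0.33) and Nmb (-0.43), and all 4 had an unadjusted p below 0.05. The part of mossy cells in the Calb2 difference was not tested. Without CBP-ifKO SC replicate 1 or 2 the adjusted p for Calb2 was 0.0511 or 0.0539, and the other 4 such fits called it.

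Sox11 had 20.1, 19.7 and 22.5 CPM in control SC mice and 17.4, 16.7 and 15.7 CPM in CBP-ifKO SC mice, without overlap. The log2 fold change was -0.38 (SE 0.084, adjusted p = 0.0233, edgeR). Sox2 had 35.5, 34.6 and 36.3 CPM in control SC mice and 29.5, 29.8 and 31.9 CPM in CBP-ifKO SC mice, again without overlap. Its log2 fold change was -0.27 (SE 0.063, adjusted p = 0.029, edgeR), the smallest of the 4. Sox11 was called in 2 of the 6 fits that left out a mouse, and kept its call without control SC replicate 1 or 2. Sox2 was called in 1 of the 6, that without control SC replicate 2. Sox2 is also transcribed in astrocytes and oligodendrocyte precursors. In SC, 3 of 5 oligodendrocyte precursor markers fell (Olig1, Olig2 and Pdgfra), their summed level being 206 to 216 CPM in controls and 163 to 173 CPM in CBP-ifKOs, while none of 7 astrocyte markers was called (4210 to 4870 against 4180 to 4410 CPM). The part of these cells in the Sox2 difference was not tested.

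**Figure D2:**
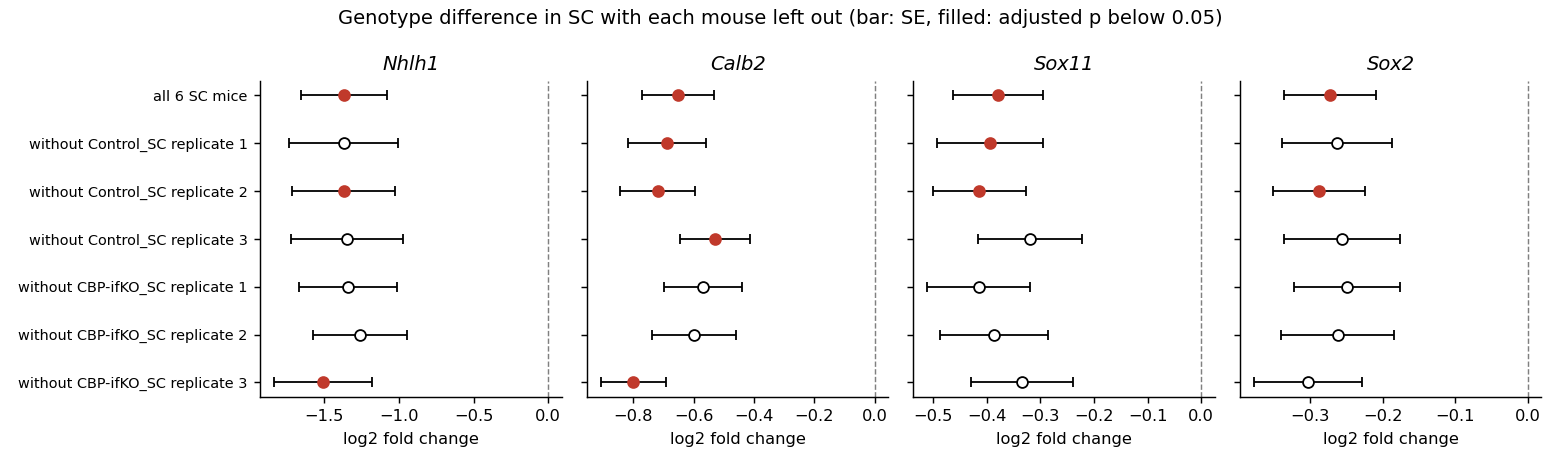
Log2 fold change between CBP-ifKOs and controls in SC (horizontal axis, bars give the SE) for the 4 members called, with all 6 mice and with each mouse left out in turn. Filled dots have an adjusted p below 0.05. Every value stays below 0, and the calls are kept in 2 of 6 fits for Nhlh1, 4 of 6 for Calb2, 2 of 6 for Sox11 and 1 of 6 for Sox2.

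Mki67, Top2a and Igfbpl1 were not called in SC, and Eomes was not tested there. Mki67, which encodes the Ki-67 antigen of cycling cells, had 1.89, 2.59 and 2.08 CPM in control SC mice and 1.58, 1.12 and 2.06 CPM in CBP-ifKO SC mice. The groups overlapped, with a log2 fold change of -0.50 (SE 0.25, adjusted p = 0.286, edgeR). Top2a, a topoisomerase of dividing cells, had 1.42, 1.52 and 0.898 CPM against 1.40, 0.70 and 1.14 CPM, and an interval of -0.97 to 0.40. Igfbpl1, an insulin-like growth factor binding protein of neuroblasts, had 0.69, 0.887 and 0.647 CPM against 0.486, 0.42 and 0.813 CPM. Its interval ran from -1.18 to 0.38. Over the 6 fits that left out a mouse, the change ranged from -0.73 to -0.31 for Mki67, from -0.50 to -0.066 for Top2a and from -0.745 to -0.23 for Igfbpl1, each closest to 0 without CBP-ifKO SC replicate 2. Eomes had 4, 8 and 6 counts in control SC mice and 2, 0 and 10 in CBP-ifKO SC mice, near the floor. These counts did not pass the filter, so whether Eomes differed in SC was not tested.

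Dcx and Neurod1 were the members measured most closely to no difference in SC. Dcx had 22.1, 30.6 and 28.1 CPM in control SC mice and 30.4, 23.5 and 29.0 CPM in CBP-ifKO SC mice. Its log2 fold change of -0.01 had an interval of -0.27 to 0.25. Neurod1 had 29.7, 26.4 and 35.2 CPM in control SC mice and 29.2, 32.0 and 32.7 CPM in CBP-ifKO SC mice, with an interval of -0.22 to 0.20. The mice of the groups were intermingled for both genes. Over the 6 fits that left out a mouse, the change ranged from -0.13 to 0.094 for Dcx and from -0.10 to 0.10 for Neurod1, with either sign.

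In EE, Nhlh1 alone among the 10 members was called between genotypes. Its levels were 1.94, 1.86 and 1.89 CPM in control EE mice and 0.32, 0.542 and 0.483 CPM in CBP-ifKO EE mice. These groups lay far apart, at 50 to 54 counts and 12 to 20 counts. The log2 fold change was -2.14 (SE 0.27, adjusted p = 0.00175, edgeR), with an interval of -2.74 to -1.54, and all 6 fits that left out a mouse kept the call (adjusted p at most 0.0141). This 1 of 10 members stands beside 4.57% of the 17625 genes tested. At an unadjusted p below 0.05, Sox11, Calb2 and Mki67 joined it, 4 of 10 beside 19.6% of genes, all lower in CBP-ifKOs. The median change of the 10 members was -0.20 against 0.013 over all genes tested.

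Sox11 had 17.9, 17.6 and 16.1 CPM in control EE mice and 15.6, 15.1 and 13.9 CPM in CBP-ifKO EE mice. The groups did not overlap, but the log2 fold change of -0.27 (SE 0.089) missed the threshold with an adjusted p of 0.114 (edgeR). Calb2 had 33.7, 36.5 and 36.3 CPM against 35.5, 26.1 and 21.1 CPM, with CBP-ifKO EE replicate 1 among the controls. Its log2 fold change was -0.43 (adjusted p = 0.129, edgeR), and -0.65 (adjusted p = 0.0109) without that mouse. This was the 1 of 6 fits leaving out a mouse that called Calb2 in EE, and without CBP-ifKO EE replicate 3 the value was -0.27 (adjusted p = 0.318). DESeq2 called Calb2 in EE. Mki67 had 1.84, 2.72 and 2.65 CPM against 1.12, 2.06 and 1.39 CPM, a log2 fold change of -0.72 (SE 0.27, adjusted p = 0.162, edgeR).

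The other members gave no call in EE. Sox2 had 35, 27.2 and 27.9 CPM in control EE mice and 27.3, 28.4 and 30.2 CPM in CBP-ifKO EE mice. The highest of these is the control library with the choroid plexus markers, and without it the log2 fold change of Sox2 went from -0.13 to -0.016. Igfbpl1 had 1.40, 1.15 and 1.54 CPM against 0.481, 0.922 and 1.27 CPM, Top2a 0.72, 1.08 and 1.29 against 1.07, 1.30 and 1.27 CPM, and Eomes 4, 10 and 7 counts against 14, 14 and 8. The same library was the lowest of its group for Top2a and Eomes, and without it the log2 fold change of Top2a turned from 0.17 to -0.038 and that of Eomes went from 0.32 to 0.031. Dcx had 22.5, 29.1 and 22.0 CPM against 27.7, 26.8 and 28.5 CPM, a log2 fold change of 0.11 with an interval of -0.12 to 0.34, or 0.046 without that library. Over the 6 fits that left out a mouse it ranged from 0.038 to 0.26, the highest without control EE replicate 2 (adjusted p = 0.0685, edgeR). Neurod1 had 25.9, 26.8 and 25.8 CPM against 31.9, 27.9 and 29.7 CPM. All 3 CBP-ifKOs lay above the controls for Neurod1 in CPM, a separation that the TMM factors narrow. The log2 fold change was 0.12 (adjusted p = 0.393, edgeR), or from 0.075 without CBP-ifKO EE replicate 1 to 0.16 without CBP-ifKO EE replicate 2.

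**Figure D3:**
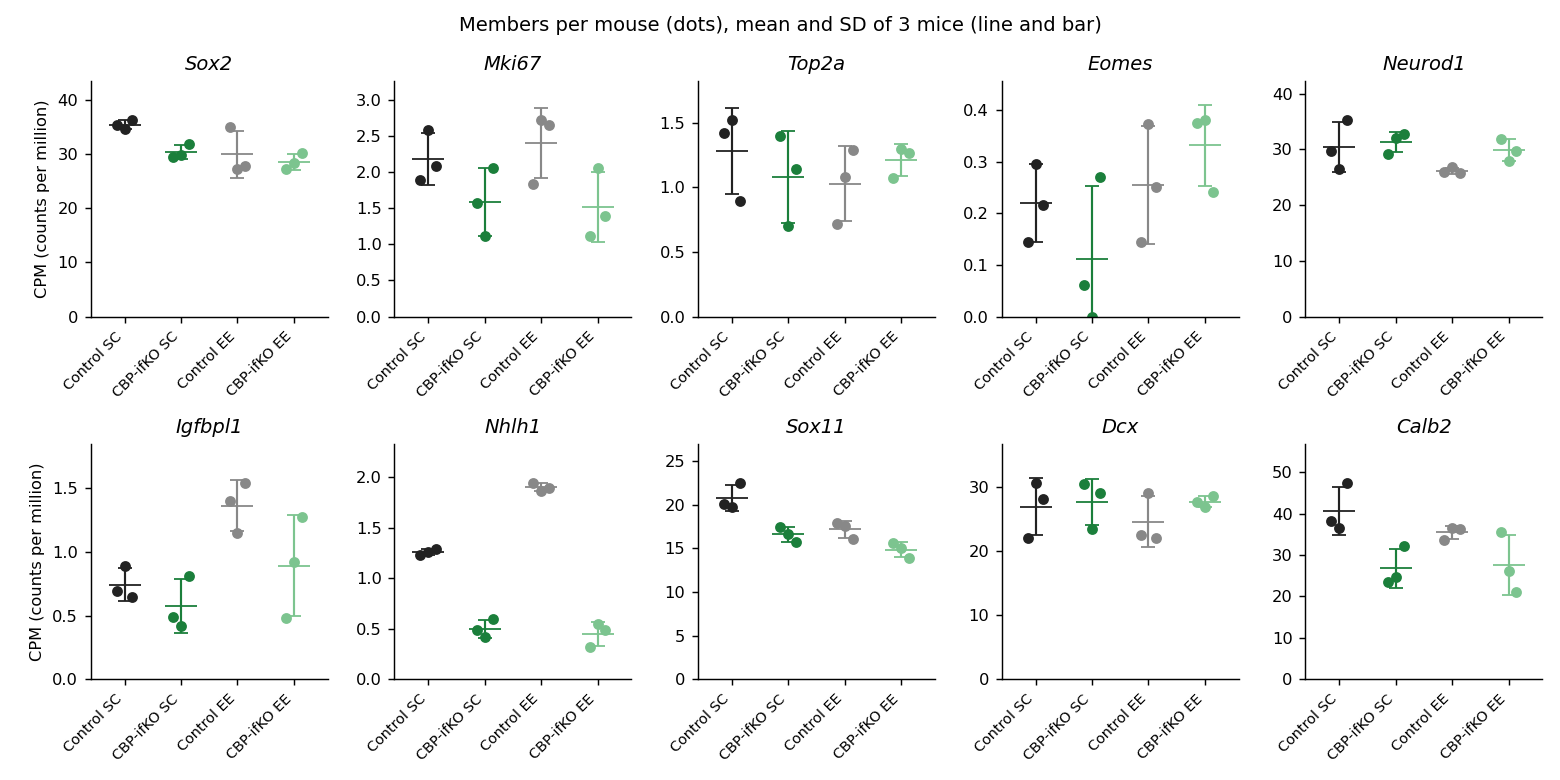
CPM of each member in the 12 mice (vertical axes from 0, 1 dot per mouse), with the mean as a line and the SD as a bar for the 3 mice of each group. For Nhlh1 the 6 CBP-ifKOs lie between 0.32 and 0.596 CPM and the 6 controls between 1.23 and 1.94 CPM, whereas the groups are intermingled for Dcx and Top2a.

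Averaged over housing in all 12 mice, 5 members fell with CBP loss and none rose. Nhlh1 fell by 1.76 on the log2 scale (adjusted p = 1.06e-05, edgeR), Sox11 by 0.33 (0.00111), Calb2 by 0.55 (0.00253), Sox2 by 0.21 (0.0232) and Mki67 by 0.61 (0.038). These 5 of 10 stand beside 16.9% of the 18251 genes tested, and 6 of 10 with an unadjusted p below 0.05 beside 29.9%. The sixth was Igfbpl1, at -0.55 (SE 0.25, adjusted p = 0.152). DESeq2 called the same 5 members. Nhlh1, Calb2 and Sox11 were called in each of the 12 fits that left out a mouse. Sox2 was called in 7 of the 12 and lost its call without control SC replicate 3, CBP-ifKO SC replicate 1 or 2, control EE replicate 1 or CBP-ifKO EE replicate 1. Mki67 was called in 4 of the 12, namely those without control SC replicate 1, CBP-ifKO SC replicate 3, control EE replicate 1 or CBP-ifKO EE replicate 2. Top2a, which is read with Mki67 as a sign of division, had -0.061 with an interval of -0.52 to 0.39, and Dcx 0.045 with an interval of -0.14 to 0.23. Without control EE replicate 1 these were -0.16 and 0.013, and over all 12 fits that left out a mouse they ranged from -0.17 to 0.047 and from -0.015 to 0.12.

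Markers of mature neurons moved with genotype too. In SC, 4 of 7 pyramidal cell markers fell (Cpne4, Mpped1, Wfs1 and Fibcd1), and their summed level was 792 to 879 CPM in controls and 644 to 657 CPM in CBP-ifKOs. Among 6 markers of mature granule cells, C1ql2 and Trpc6 fell and Lct rose, with sums of 423 to 467 and 409 to 450 CPM. In EE, where Nhlh1 was called, 4 of 7 pyramidal cell markers fell, with sums of 828 to 886 and 636 to 641 CPM, and 3 of 6 granule cell markers fell (C1ql2, Trpc6 and Dsp) and none rose, with sums of 403 to 477 and 391 to 398 CPM. No marker of either list was at 0 in any mouse. Neuroblasts of the subventricular zone, which could enter a wide dissection, are marked by 5 genes, of which none was called in either housing, with sums of 46.4 to 51.1 CPM in control and 47.2 to 53.2 CPM in CBP-ifKO SC mice. In EE the sums did not overlap when scaled to the library total, at 41.5 to 44.6 CPM in controls and 45.7 to 51.4 CPM in CBP-ifKOs. The TMM factors, which these sums leave out, bring the genotypes closer. All 5 genes had a log2 fold change above 0 (median 0.14), and none had an unadjusted p below 0.05 (edgeR). The part of mature neurons in the differences of the members was not tested.

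EE changed no member past the threshold in control mice. The edgeR test called 0 of 10 members and 0 of 18251 genes (0%), and DESeq2 called 0 members and 15 genes. At an unadjusted p below 0.05 there were 5 members, beside 4.21% of genes, and they went in both directions. Igfbpl1 and Nhlh1 were higher in EE, whereas Sox11, Sox2 and Neurod1 were lower. The median change of the 10 members was -0.15 against 0.00096 over all genes.

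Igfbpl1 went from 0.69, 0.887 and 0.647 CPM in control SC mice to 1.40, 1.15 and 1.54 CPM in control EE mice. The groups did not overlap, and the log2 fold change was 0.89 (SE 0.35, unadjusted p = 0.0215, adjusted p = 0.999, edgeR). It was 0.88 without the library with the choroid plexus markers. Nhlh1 also did not overlap, from 1.23 to 1.29 CPM in SC and from 1.86 to 1.94 CPM in EE, with a log2 fold change of 0.60 (SE 0.23, unadjusted p = 0.0207, adjusted p = 0.999, edgeR). Sox11 lay lower in all 3 control EE mice, with a log2 fold change of -0.26 (unadjusted p = 0.00587, adjusted p = 0.987, edgeR). Sox2 had -0.23 (adjusted p = 0.999, edgeR) and Neurod1 -0.21, both with overlapping mice, and Sox2 had -0.35 (adjusted p = 0.343) without control EE replicate 1. Neurod1 had -0.092 without control SC replicate 3, its highest control mouse, and -0.295 without control SC replicate 2.

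For the genes most used as readouts of neurogenesis and division, the intervals of the EE change in control mice show which sizes of change these data do not resolve. Dcx had a log2 fold change of -0.12 with an interval of -0.39 to 0.15, or a fold of 0.918. Mki67 had 0.15 with an interval of -0.42 to 0.71, and Top2a -0.30 with an interval of -0.95 to 0.36. Calb2 had -0.19 with an interval of -0.51 to 0.14, and all 3 control EE mice lay below the control SC mice for it. Eomes had 0.23 with an interval of -1.19 to 1.65. These values move with single libraries. Without control EE replicate 1, the library with the choroid plexus markers, Dcx had -0.06, Mki67 0.31, Top2a -0.092 and Eomes 0.52. Over all 12 fits that left out a mouse, the change ranged from -0.27 to -0.019 for Dcx, from 0.041 to 0.31 for Mki67, from -0.50 to -0.092 for Top2a, from -0.25 to -0.065 for Calb2 and from -0.14 to 0.52 for Eomes.

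In CBP-ifKOs, edgeR called no member for EE, and neither did DESeq2, which gave Eomes no adjusted p, beside 0.011% of the 18251 genes with edgeR, and 1 member had an unadjusted p below 0.05, beside 8.59% of genes. That member was Eomes, with 2, 0 and 10 counts in SC and 14, 14 and 8 in EE, where the groups overlapped (log2 fold change 1.44, SE 0.66, adjusted p = 0.57, edgeR). Its highest levels were in EE mice, at 0.38 and 0.374 CPM in CBP-ifKOs and 0.372 CPM in a control. It passed the filter on low counts here but not in the SC mice alone. With CBP-ifKO counts divided by 2 it did not pass and gave no value, so this p depends on the filter and on the deposited counts. Over the 12 fits that left out a mouse, Eomes ranged from 0.95 without CBP-ifKO SC replicate 2 to 3.19 without CBP-ifKO SC replicate 3. Igfbpl1 had 0.59 (SE 0.36) and ranged from 0.26 without CBP-ifKO EE replicate 3 to 0.94 without CBP-ifKO SC replicate 3. With no mouse left out, Dcx had -0.011, Nhlh1 -0.18 and Sox11 -0.17, the last with all 3 EE mice below the SC mice. Single mice turned the sign of Dcx (from -0.11 to 0.063 over the 12 fits) and of Nhlh1 (from -0.35 without CBP-ifKO EE replicate 2 to 0.019 without CBP-ifKO EE replicate 1). The median of the 10 members was -0.045 against -0.0025 over all genes. Averaged over genotypes, 0 of 10 members were called by edgeR, beside 0.164% of genes. DESeq2 called none either and gave no adjusted p for Eomes, Igfbpl1, Nhlh1 and Top2a. At an unadjusted p below 0.05 there were 4, beside 9.44%, which were Igfbpl1 (0.74), Sox11 (-0.22), Sox2 (-0.16) and Neurod1 (-0.14, or -0.084 without control SC replicate 3).

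**Figure D4:**
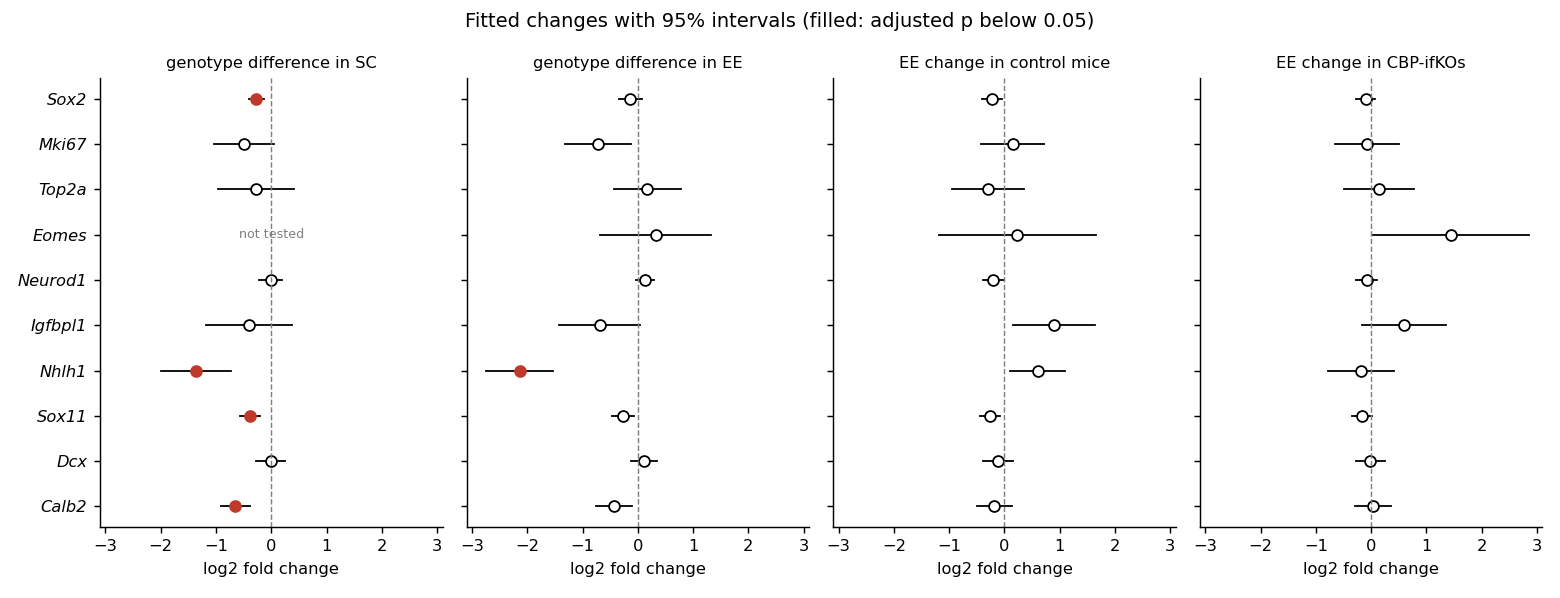
Log2 fold change of each member (dots) with its 95% interval (lines) for the genotype difference in SC and in EE and for the EE change in control mice and in CBP-ifKOs. Filled dots have an adjusted p below 0.05, which are Sox2, Nhlh1, Sox11 and Calb2 in the first panel and Nhlh1 in the second, and Eomes was not tested in SC.

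No member was called for a different genotype effect in the 2 housings (edgeR and DESeq2, 0 of 10, beside 0% of 18251 genes). With edgeR, 1 member had an unadjusted p below 0.05, beside 3.15% of genes. This was Nhlh1, with an interaction of -0.78 on the log2 scale (SE 0.37, interval -1.57 to -0.0010, unadjusted p = 0.0497, adjusted p = 1). Its mean went from 1.26 ± 0.03 to 1.90 ± 0.042 CPM in controls and from 0.501 ± 0.0893 to 0.449 ± 0.115 CPM in CBP-ifKOs (SD, n = 3 each). The comparisons of EE and of genotype share these control mice, so a control group that is high or low moves both. For Sox11 the interaction was 0.097 (interval -0.15 to 0.35) and for Dcx 0.11 (interval -0.27 to 0.49). For Top2a it was 0.44 and for Mki67 -0.23, with intervals of -0.46 to 1.35 and -1.04 to 0.59. Over the 12 fits that left out a mouse, the interaction ranged from 0.043 to 0.145 for Sox11, from 0.0084 to 0.26 for Dcx, from 0.23 to 0.67 for Top2a and from -0.52 to 0.0074 for Mki67, whose sign turned without CBP-ifKO SC replicate 3. Without control EE replicate 1 the last 3 were 0.049, 0.24 and -0.39.

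The steps of the lineage were then followed in 7 lists of genes, which hold 137 genes beside the members. Averaged over housing, 25 of these fell in CBP-ifKOs and 7 rose of 130 tested, which is 24.6% against 16.9% of all genes. Among 19 stem and radial glia-like genes tested, 5 fell and none rose. These were Sox9, a glial and stem cell factor (-0.27), Hopx, which marks quiescent stem cells (-0.22), the brain lipid-binding protein gene Fabp7 (-0.51), Emx2 (-0.30) and Sox2. Hopx was called in EE (-0.36, means of 60.1 and 48.9 CPM) and not in SC (-0.066, means of 51.4 and 50.9 CPM), with an interaction of -0.31 (unadjusted p = 0.00607, adjusted p = 1, edgeR). Glial markers moved with them, since in the same comparison 3 of 7 astrocyte markers and 4 of 5 oligodendrocyte precursor markers were called lower and all 12 had a log2 fold change below 0. Their part in the stem cell list was not tested. Among 18 genes of intermediate progenitors and neuroblasts, 3 fell, Nhlh1, Sox11 and its relative Sox4 (-0.28), of which the first 2 are members. This share lies near the 16.9% of all genes, and the median was -0.26 against 0.0029 over all genes.

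Of 24 immature neuron genes tested, 10 were lower and 1 was higher in CBP-ifKOs averaged over housing, beside 16.9% of all genes called, with a median of -0.20 against 0.0029. Those with the smallest p were Dpysl3, a collapsin response mediator protein (-0.39), Fxyd7, a regulator of the sodium pump (-0.93), the tubulin gene Tubb2b (-0.40), Stmn2, which encodes a growth cone stathmin (-0.24), and Sox11. In SC, Fxyd7 had a mean of 27.7 CPM in controls and 16.4 CPM in CBP-ifKOs, and in EE 27.9 and 14.1 CPM. Dpysl3, Fxyd7, Tubb2b and Stmn2 were called in both housings. Mature neurons transcribe several of these genes as well, and their part was not tested.

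Most genes of division were not called, and their shares called lay near or below the 16.9% of all genes. Of 20 replication and S phase genes tested, 2 were higher in CBP-ifKOs, the cyclin gene Ccne2 (0.38) and the thymidine kinase gene Tk1 (0.68), and none was lower. Of 22 genes of G2 and mitosis, the spindle checkpoint gene Mad2l1 (0.30), the kinesin gene Kif11 (0.49) and the cyclin gene Ccna2 (0.37) were higher, and Mki67 was the 1 that was lower. The medians of both lists were 0.0088 and -0.009, near the 0.0029 of all genes. Scaled to the library total, the summed levels were higher in CBP-ifKOs without overlap. For S phase they were 148 to 157 CPM in control and 158 to 166 CPM in CBP-ifKO SC mice, and 147 to 156 and 165 to 179 CPM in EE. The TMM factors, which the sums leave out, bring the genotypes closer, so this separation is not one of fitted changes. Of 19 S phase genes tested in SC, 8 were higher and 11 lower (median -0.042). In EE, 13 were higher and 6 lower (median 0.069). For G2 and mitosis the sums were 45.7 to 48.9 against 51 to 52.8 CPM in SC and 42.4 to 46.3 against 49.8 to 53.2 CPM in EE, the opposite direction to Mki67. The list did not move as a whole, since in SC 12 of 21 genes tested were lower, like Mki67, and 9 higher (median -0.059). In EE 9 of 22 were lower and 13 higher (median 0.083). Genes with higher SC means in CBP-ifKOs included Mad2l1 (8.22 and 10.5 CPM) and Ccna2 (2.67 and 4.02 CPM). Another was Bub1b, a kinase of the spindle checkpoint (2.6 and 4.18 CPM). In EE, Bub1b rose by 1.05 (adjusted p = 0.0303, edgeR). Of 14 genes of cell cycle entry and exit, the D-type cyclins Ccnd1 (-0.58) and Ccnd2 (-0.29) and the cyclin-dependent kinase inhibitor Cdkn1a (-0.45) were lower and none was higher, a share not far above that of all genes.

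In the list of niche signals and their receptors, 28 genes were tested. Of these, 10 were lower and 1, Gli1, was higher in CBP-ifKOs averaged over housing, beside 16.9% of all genes called. The median was -0.07 against 0.0029. In the same comparison 5 of 7 pyramidal cell markers and 4 of 5 oligodendrocyte precursor markers fell, and their part in this list was not tested. The neurotrophin gene Bdnf (-0.68), the chemokine gene Cxcl12 (-0.40), the receptor gene Fgfr1 (-0.27) and the ligand gene Wnt7a (-0.40) fell. Gli1, a target of hedgehog signalling, is itself neither a secreted signal nor a receptor. It rose by 0.98, from a mean of 1.55 to 3.11 CPM in SC and from 1.56 to 3.31 CPM in EE. For EE averaged over genotypes, 1 of the 130 genes beside the members was called, which is 0.769% against 0.164% of all genes. This was Sox9, which fell by 0.40 (adjusted p = 0.0103, edgeR), with group means of 34.1 and 25.7 CPM in control SC and EE mice and 29.4 and 22.3 CPM in CBP-ifKO SC and EE mice. In the other 6 lists no gene was called for EE averaged over genotypes. The medians of the 7 lists for EE lay between -0.15 and 0.017.

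**Figure D5:**
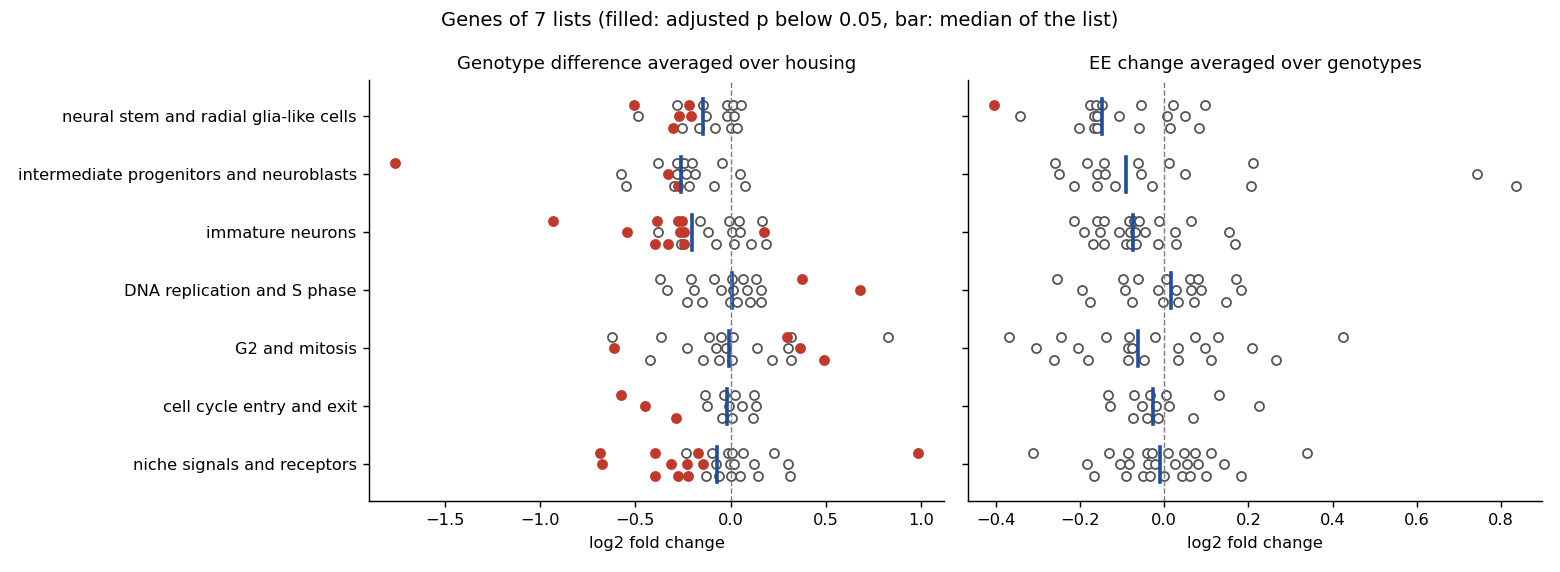
Log2 fold change of the genes of 7 lists (1 dot per gene, members included) for the genotype difference averaged over housing and for the EE change averaged over genotypes, with the median of each list as a bar. Filled dots have an adjusted p below 0.05. In the first panel they lie mostly below 0 in the upper 3 lists and above 0 in DNA replication and S phase, and in the second panel 1 gene, Sox9, is filled.

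Across mice, no pair of members had a correlation past the threshold. After the group means were subtracted, 27 of 45 pairs of members had a positive Pearson correlation of log2 CPM and 18 a negative one, with a median of 0.089. In exact permutation tests that exchanged mice within groups, 2 pairs had an unadjusted p below 0.05 and 0 passed the Benjamini-Hochberg adjustment. Eomes and Mki67 had r = 0.763 (exact permutation p = 0.0193, adjusted p = 0.434, n = 12) and rho = 0.797 (p = 0.0139, adjusted p = 0.461, permutation), with r = 0.619 without 2 mice. Sox11 and Igfbpl1 had r = -0.718 (exact permutation p = 0.0193, adjusted p = 0.434, n = 12) and rho = -0.769 (p = 0.0231, adjusted p = 0.461, permutation), with r = -0.631 without 2 mice. Both division markers, Mki67 and Top2a, had r = 0.646 (exact permutation p = 0.0556, adjusted p = 0.455, n = 12) and rho = 0.573 (p = 0.0957, adjusted p = 0.486, permutation), with r = 0.584 without 2 mice.

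As a description over the 12 mice with no test, the genes most like Dcx in log2 CPM were Gk5 (r = 0.921), Ptpn4 (0.915) and Zc3h6 (0.881), of 14992 genes with a mean of at least 1 CPM. Those most like Top2a were Ttpa (0.817), Gm9958 (0.801) and Zc3h14 (0.80). Those most like Nhlh1, given here after their values were seen, were Cpne8 (0.983), Cabp7 (0.98) and Rgs14 (0.968), the last a gene of CA2 pyramidal cells. The points share genotype, housing and library depth.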

How the data were processed

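Hippocampal RNA was measured in 12 mice, each sequenced in 2 runs that were merged before counting. Single-end reads of 50 bp were trimmed by the authors with Trim Galore 0.6.4 and aligned to mm10 (GRCm38) with STAR 2.6.1. Alignments of mapping quality above 10 were assigned to Ensembl 99 exons with Rsubread, and the table they deposited holds these counts, not normalized. From these, edgeR 4.0.16 in R 4.3.3 was run with its expression filter, TMM and the quasi-likelihood F test, adjusted over all genes tested. Genotypes were compared in the 6 SC and the 6 EE mice, and the other contrasts in all 12 with 1 coefficient per group. Intervals are 95%. Log2 CPM for correlations used a prior count of 2. Alternatives were DESeq2 1.42.0, its size factors, other filters, CBP-ifKO counts divided by 2 with and without thinning, a replicate block, other mice in the fit, and each mouse left out. The procedure was tested on simulated counts. The members, the 7 lists and the cell type markers were chosen with earlier results of these data known. From each list, up to 5 genes called per comparison were named by smallest p, and the 3 most alike genes for Dcx and Top2a. Promoters came from RefSeq, and Calb2 and Igfbpl1 had no entry.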

Additional observations from a re-analysis of the deposited data

How the results depend on the processing

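The direction of every member called was kept under every alternative. Among the counts of members called, SC went from 4 to 3 with DESeq2 (no adjusted p for Nhlh1), with thinned halved counts and with the other mice in the fit, and the genotype difference in EE went from 1 to 2 with DESeq2 and with no filter on low counts, where Calb2 was added. With each mouse left out, the count ranged from 0 to 4 in SC, from 1 to 2 in EE and from 3 to 5 averaged over housing, with Calb2 added in EE without CBP-ifKO EE replicate 1, and 3 averaged over housing without control SC replicate 3, CBP-ifKO SC replicate 1 or 2, or CBP-ifKO EE replicate 1. The counts of 0 for EE and for the interaction stayed at 0 throughout. CBP-ifKO counts divided by 2 moved none of 27 genotype values by more than 0.011, and Eomes, under the filter there, gave none. With thinning as well, Nhlh1 in SC (-1.26, adjusted p = 0.0568) and Mki67 averaged over housing (-0.59, adjusted p = 0.057) were not called, and Top2a in SC, not called, went from -0.28 to 0.045. With the other mice in the fit Sox2 in SC was not called (adjusted p = 0.0673). The causes were not tested. With the replicate block the counts were 4 in SC, 1 in EE and 5 averaged over housing, as without it. Same-numbered mice did not deviate together in every pair of groups (correlations from -0.0675 to 0.305), and the labels tie no animals by number. Over all genes, DESeq2 called 1262 between genotypes in EE (edgeR 805) and 15, 50 and 156 for EE in controls, in CBP-ifKOs and averaged (edgeR 0, 2 and 30). Without a filter edgeR called 1512 and 1677 between genotypes in SC (968 with it) and EE, 145, 247 and 334 for EE and 110 for the interaction (0 with it). With other mice in the fit it called 1293 between genotypes in EE, and 1 and 21 for EE in controls and CBP-ifKOs. The replicate block gave 17 for EE in CBP-ifKOs and 48 averaged, and CBP-ifKO counts divided by 2 gave 0 for EE in CBP-ifKOs, or 1 with thinning. At 12 to 22 counts in CBP-ifKOs, or 6 to 11 after division by 2, Nhlh1 rests on few reads, and Eomes on fewer.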
